A study of Mus musculus with 6 samples.

Results

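The potassium channel genes of the mouse left ventricle were followed across cell types and across 3 groups of mice. The members were all genes whose symbol starts with Kcn, without pseudogenes and without symbols ending in os, which gave 97 of the 33696 genes counted. By role, 27 encode subunits of voltage-gated channels of the Kcna to Kcnd, Kcnf, Kcng, Kcns and Kcnv families, 5 belong to Kcnq, 8 to Kcnh, 15 to the inward rectifiers (Kcnj), 14 to the leak channels with a tandem pore domain (Kcnk), 8 to the Kcnma, Kcnn, Kcnt and Kcnu families, most of which are gated by calcium or sodium, and 17 encode accessory subunits. The other 3 are the non-coding RNAs Kcnq1ot1, Kcnmb4os1 and Kcnmb4os2, whose symbols meet the rule. The members took 763518 unique molecular identifiers (UMIs, 1 per captured RNA molecule) in the nuclei kept. Of the 97, 62 had at least 100 UMIs in all and 34 at least 1000, while 13 had fewer than 10 and 6 of these had none.

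Single-nucleus RNA sequencing was performed on left ventricle of male mice, 12 weeks old, in 6 libraries. WT-CD mice were wild-type littermates on a control diet (2 libraries), R403Q-CD mice had the R403Q mutation of the cardiac myosin heavy chain and ate the same diet (2 libraries), and R403Q-EMPA mice had that mutation with empagliflozin (EMPA), an inhibitor of the renal sodium-glucose cotransporter, mixed into the diet (2 libraries). Mutant mice of this kind are a model of hypertrophic cardiomyopathy, and WT-CD and R403Q-CD ask what the mutation does while R403Q-EMPA and R403Q-CD ask what the drug does in mutant hearts. The diets started at 9 to 10 weeks of age, with 0.15 mg EMPA per g of diet or about 15 mg per kg body weight. The labels also name a feeding period that the age of these mice does not allow, and the study's protocol took hearts for RNA sequencing early in the treatment, so its length is not printed. EMPA was given to the whole animal, so effects inside a cell type and effects of the changed heart cannot be told apart. No group of wild-type mice on EMPA was among these samples. The labels do not say whether the 2 libraries of a group came from 2 mice, so the p-values measure the spread between libraries, which may be technical.

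Potassium channels let potassium leave the cell and so pull the membrane back to rest. In ventricular myocytes of the mouse, transient outward channels (Kcnd2, Kcnd3 and their partner Kcnip2) carry the early phase of repolarisation. Inward rectifiers (Kcnj2, Kcnj12) hold the resting potential. Kcnq1, Kcnh2 and Kcna5 encode delayed rectifiers, and the part of each in mouse repolarisation was not measured here. In vessels, channels sensitive to ATP (Kcnj8 and Kcnj11) and the large-conductance calcium-activated channel (Kcnma1) set the tone of mural cells, and in immune cells potassium efflux sustains calcium entry.

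After filtering, 46005 nuclei formed 25 clusters, of which 24 were assigned to 11 classes by marker genes and named "-like", since no annotation of single nuclei by the authors was used here. The deposited libraries held 10032 to 13110 barcodes and 31787308 to 45397128 UMIs each, and 6409 to 9514 nuclei per library were kept, with medians of 2663 to 4065 UMIs per nucleus. Any pair of libraries shared 23 to 56 barcodes. The 10 classes with at least 20 nuclei in every library were compared. They ranged from fibroblast-like (14148 nuclei) and endothelial-like (12496) through cardiomyocyte-like (6935), pericyte-like (4647), endocardial-like (3219), myeloid-like (2403) and lymphatic endothelial-like (1109) to lymphoid-like (470), epicardial-like (245) and smooth muscle-like nuclei (231). Schwann-like nuclei (61) were too few to compare, although Kcna1 and Kcna6, channels known from myelinated nerve, were among the 4 genes that led their cluster. The labels also name epicardial fat, but no cluster met the rule for adipocytes. Levels are CPM: the UMIs of a gene, per 1000000 UMIs of all genes, in 1 class of 1 library. No length correction was made, so levels compare 1 gene across classes and libraries and never 2 genes. Nuclear RNA is rich in unspliced transcripts and is not a measure of channel protein or current.

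RNA of cardiomyocytes was found in every class. The summed level of 10 cardiomyocyte markers was 59229 to 71371 CPM in cardiomyocyte-like nuclei. It was 1283 to 2238 CPM in fibroblast-like, 1316 to 2908 CPM in endocardial-like and 2836 to 18015 CPM in lymphoid-like nuclei, where R403Q-EMPA replicate 2 was the highest library and the others lay at or below 5702 CPM. None of the 10 markers was at 0 in any of the 10 classes.

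A member was said to mark a class when its CPM was higher there than in each of the other 9 classes in all 6 libraries, its mean over libraries was at least 2 times that of the next class, and every library held at least 3 of its UMIs in that class. Clusters were built without any Kcn gene. By this description, which is no test, 29 members marked a class out of 61 that had 3 UMIs per library in some class. That is 47.5%, against 17.3% of all genes under the same rule. The members fell on 8 classes: 13 on cardiomyocyte-like, 4 on myeloid-like, 3 each on endocardial-like and smooth muscle-like, 2 each on pericyte-like and lymphoid-like, and 1 each on fibroblast-like and lymphatic endothelial-like nuclei. Endothelial-like and epicardial-like nuclei had none. At the edge of the rule, Kcnk6 in myeloid-like nuclei was just inside with 2.27 times the next class, and Kcna5 in endothelial-like nuclei was just outside with 1.77 times.

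**Figure D1:**
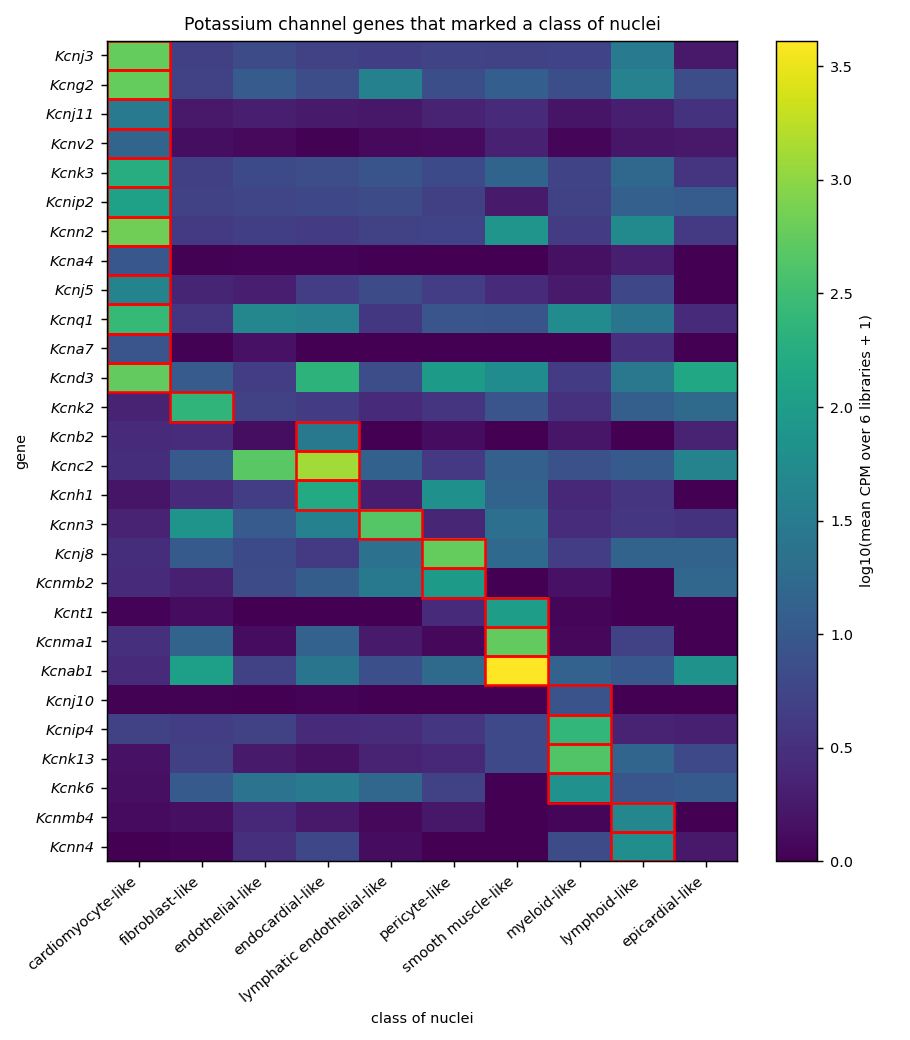
Mean CPM over 6 libraries, as log10(CPM + 1), of 28 of the 29 members that marked a class (rows) in 10 classes of nuclei (columns); a red frame shows the class that a member marked. The frames step down from cardiomyocyte-like nuclei, the class with most frames, to the 2 of lymphoid-like nuclei, and the brightest cell is Kcnab1 in smooth muscle-like nuclei at 4101 CPM.

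Cardiomyocyte-like nuclei were marked by 13 of the 42 members with enough UMIs there (31%, against 5.84% of all genes). By ratio to the next class, the first was Kcnj3, a subunit of the channel that acetylcholine opens through G proteins, at 579 ± 140.3 CPM (SD, n = 6), which was 19.2 times the mean of lymphoid-like nuclei (30.2 CPM). Its partner in that channel, Kcnj5, was at 42 ± 8.19 CPM and 7.34 times the next class. Kcng2, a modifier that forms channels only together with other voltage-gated subunits, stood at 574 ± 73.9 CPM and 14.8 times the next class. Kcnj11, the pore of the ATP-sensitive channel of myocytes, reached 29.2 ± 3.52 CPM and 12.1 times. Kcnv2, another modifier of voltage-gated channels, had 14.1 ± 3.99 CPM and 12 times. Kcnk3, an acid-sensitive leak channel, had 175 ± 27.7 CPM and 11.6 times. The lymphoid-like class was next highest for Kcnj3, Kcng2 and Kcnk3, which is the class where 1 library carried the most cardiomyocyte RNA. All 29 pairs of member and class were kept when that library was left out. Leaving out a library can only ease the conditions set for every library, so this does not tell how much that RNA matters.

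Among transient outward channels, Kcnip2, the accessory subunit that brings Kcnd channels to the membrane, measured 119 and 119 CPM (WT-CD), 122 and 116 CPM (R403Q-CD) and 119 and 109.9 CPM (R403Q-EMPA). No group stood apart from the rest. Kcnd3 measured 385 and 619 CPM (WT-CD), 636 and 594 CPM (R403Q-CD) and 565 and 536 CPM (R403Q-EMPA) in cardiomyocyte-like nuclei. It was also present in endocardial-like nuclei, at 215 ± 58.9 CPM, so that it marked cardiomyocyte-like nuclei by only 2.59 times. Kcnd2 did not mark them, because epicardial-like nuclei held more of it.

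Among delayed rectifiers, Kcnq1, the slow delayed rectifier, was at 261 ± 36.4 CPM with myeloid-like nuclei next at 54.1 ± 8.27 CPM. Kcne1, its accessory subunit, had 3.31 ± 0.632 CPM. Kcnh2, the rapid delayed rectifier, had 38.5 ± 8.3 CPM, 1.66 times its level in smooth muscle-like nuclei, so it missed the rule. The inward rectifiers of the resting potential were shared with smooth muscle-like nuclei: Kcnj2 had 53.8 ± 15.3 CPM against 51.8 ± 21.1 CPM, and Kcnj12 had 29.9 ± 5.81 CPM against 31.4 ± 15.9 CPM. In neither case did the 2 classes differ beyond the spread between libraries. Among calcium-activated channels, Kcnn2 stood at 682 ± 181 CPM and 8.98 times smooth muscle-like nuclei, whereas Kcnn1 had 3.61 ± 1.18 CPM, less than in fibroblast-like nuclei (6.87 ± 1.21 CPM), and did not mark a class. Kcna4 and Kcna7, further voltage-gated subunits, also marked cardiomyocyte-like nuclei, at 8.65 ± 1.93 CPM and 7.87 ± 2.09 CPM.

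**Figure D2:**
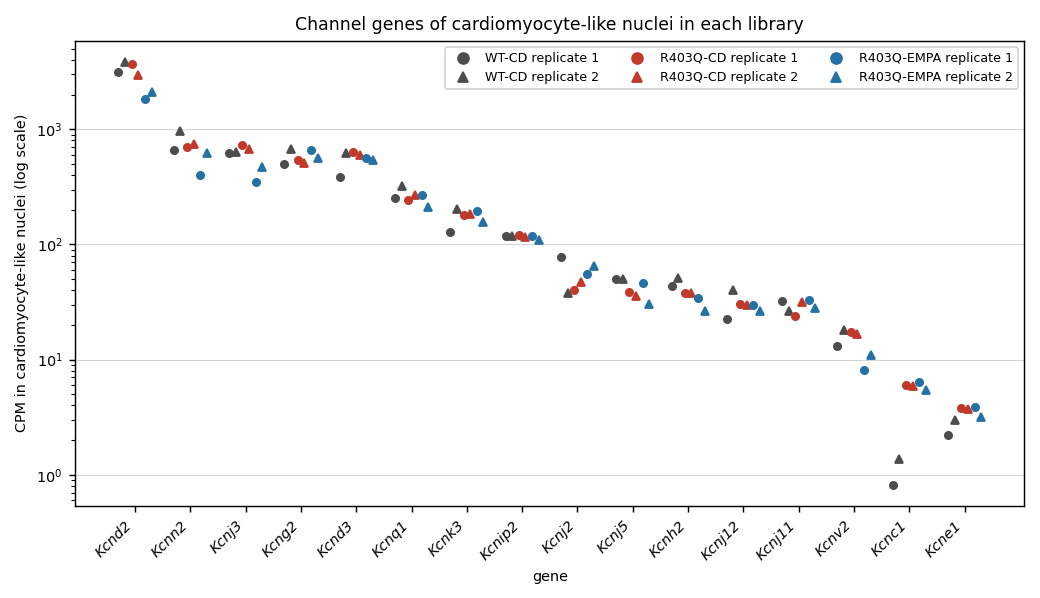
CPM of 16 members in cardiomyocyte-like nuclei on a log axis, 1 point per library, coloured by group with circles for replicate 1 and triangles for replicate 2. Heights compare libraries of 1 gene only: Kcnip2 stays within 109.9 to 122 CPM, the R403Q-EMPA points of Kcnd2 and Kcnj3 lie below the other 4 libraries, and the 2 WT-CD points of Kcnc1 (0.824 and 1.39 CPM) lie below the rest.

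Kcnd2 was highest in epicardial-like nuclei, the cells that cover the heart. There it measured 5313 and 4933 CPM (WT-CD), 3054 and 3095 CPM (R403Q-CD) and 3252 and 3003 CPM (R403Q-EMPA), from 4562 UMIs in 245 nuclei. In cardiomyocyte-like nuclei it measured 3124 and 3849 CPM (WT-CD), 3724 and 2957 CPM (R403Q-CD) and 1830.5 and 2123 CPM (R403Q-EMPA). The epicardial-like value was above the cardiomyocyte-like value of the same library in 5 of 6 libraries, all but R403Q-CD replicate 1, and the ranges of the 2 classes overlapped. In the remaining classes, leaving aside lymphoid-like nuclei, Kcnd2 was at most 51.4 CPM in any library. Cardiomyocyte markers summed to 1439.9 to 3111 CPM in epicardial-like nuclei, at the level of the other non-muscle classes, while the 8 epicardial markers summed to 6327 to 7449 CPM. In lymphoid-like nuclei Kcnd2 ranged from 0 to 579 CPM, with the highest value in the library that carried the most cardiomyocyte RNA. Kcnq5, a voltage-gated channel of slow activation, was also highest in epicardial-like nuclei, at 898 ± 225 CPM, with lymphoid-like nuclei next at 700.3 ± 301 CPM, and the 2 overlapped. Kcnk5, an alkali-sensitive leak channel, reached 93.3 ± 37.4 CPM and was above lymphatic endothelial-like nuclei (55.8 ± 15.2 CPM) on average. No member marked the class by the rule, of 8 with enough UMIs, where 5.62% of all genes did.

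**Figure D3:**
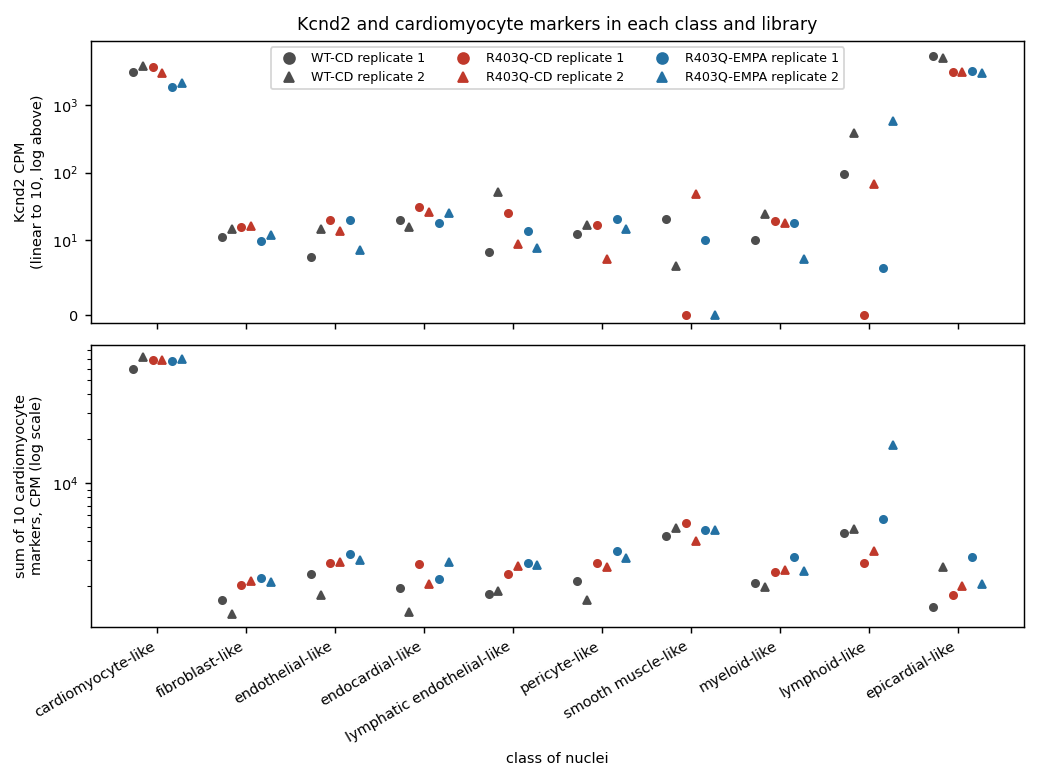
Kcnd2 (upper, CPM, linear to 10 and log above) and the summed CPM of 10 cardiomyocyte markers (lower, log axis) in 10 classes, 1 point per library, with colours for groups and symbols for replicates. Epicardial-like nuclei sit with cardiomyocyte-like nuclei in the upper panel and with the non-muscle classes in the lower one, and in lymphoid-like nuclei the highest point of both panels is R403Q-EMPA replicate 2.

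Mural cells carried 5 marking members. Pericyte-like nuclei, the cells that wrap capillaries, were marked by 2 of 23 members with enough UMIs (8.7%, against 1.31% of all genes). Kcnj8, the pore of the vascular ATP-sensitive channel, measured 851 and 488 CPM (WT-CD), 538 and 555 CPM (R403Q-CD) and 526 and 507 CPM (R403Q-EMPA) and was 27.6 times the next class. Its regulatory partner Abcc9, which is no member, was highest in the same nuclei, at 5359 ± 559 CPM, and had 292 ± 44.6 CPM in cardiomyocyte-like nuclei, where Abcc8, the other regulatory subunit of ATP-sensitive channels, had 94 ± 17.2 CPM. Kcnmb2, an accessory subunit that inactivates the large-conductance channel, had 92.2 ± 21 CPM and 3.27 times the next class.

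Smooth muscle-like nuclei were marked by 3 of 8 members with enough UMIs (37.5%, against 2.74% of all genes). Kcnab1, a beta subunit of voltage-gated channels, had 4101 ± 367 CPM, 37.4 times the mean of fibroblast-like nuclei (109.7 CPM). Its libraries measured 3739 and 4574 CPM (WT-CD), 3969 and 4117 CPM (R403Q-CD) and 3717 and 4492 CPM (R403Q-EMPA), with overlapping groups. Kcnt1, a sodium-activated channel, had 102 ± 37.7 CPM from 77 UMIs in all, and 57.9 times the next class. Kcnma1, the pore of the large-conductance calcium-activated channel, had 872 and 1073 CPM (WT-CD), 331 and 421 CPM (R403Q-CD) and 475 and 176 CPM (R403Q-EMPA), so that both WT-CD libraries were above the other 4. Against WT-CD, its difference was not called in R403Q-CD (log2 fold change -1.42, SE 0.34, adjusted p = 0.383 by edgeR) or in R403Q-EMPA (log2 fold change -1.51, SE 0.34, adjusted p = 0.132). Leaving out R403Q-EMPA replicate 1 or 2 gave adjusted p = 0.00521 and 0.00453 for R403Q-CD, and leaving out R403Q-EMPA replicate 1, R403Q-CD replicate 1 or R403Q-CD replicate 2 gave 0.00027, 0.000565 and 0.000751 for R403Q-EMPA. Kcnmb1, its smooth muscle accessory subunit, had 83.7 and 65.4 CPM (WT-CD), 40.1 and 28.1 CPM (R403Q-CD) and 40.8 and 11.8 CPM (R403Q-EMPA) from 39 UMIs, and was not tested because its counts were too low. The summed smooth muscle markers were 11259 and 12740.4 CPM (WT-CD), 8239 and 8908 CPM (R403Q-CD) and 8235 and 7561 CPM (R403Q-EMPA), also higher in both WT-CD libraries, and their part in the Kcnma1 values was not tested.

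The linings of heart and vessels differed from each other. Endocardial-like nuclei, which line the chambers, were marked by 3 of 23 members with enough UMIs (13%, against 1.04% of all genes). Kcnc2, a fast voltage-gated channel known from neurons, had 1312 ± 329 CPM there, 485 ± 133 CPM in endothelial-like nuclei and 12.2 ± 16.4 CPM in lymphatic endothelial-like nuclei. Kcnh1, a voltage-gated channel of the ether-à-go-go family, had 163 ± 24.5 CPM with pericyte-like nuclei next at 64.4 ± 26.8 CPM. Kcnb2, a delayed rectifier, had 27.6 ± 13.1 CPM and 14.7 times the next class. Lymphatic endothelial-like nuclei were marked by 1 of 10 members (10.0%, against 2.08% of all genes), the small-conductance calcium-activated channel Kcnn3, at 460.4 ± 80.4 CPM and 6.24 times fibroblast-like nuclei. In endothelial-like nuclei none of 36 members met the rule (0%, against 1.53% of all genes). Kcna5, a delayed rectifier, came nearest, at 42.4 ± 7.05 CPM, and it had 0.428 ± 0.0763 CPM in cardiomyocyte-like nuclei.

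Fibroblast-like nuclei were marked by 1 of 39 members with enough UMIs (2.56%, against 1.81% of all genes), the stretch-sensitive leak channel Kcnk2, at 229.7 ± 81 CPM and 13.5 times epicardial-like nuclei. Myeloid-like nuclei were marked by 4 of 15 (26.7%, against 5.15% of all genes). Kcnk13, a leak channel known from microglia, had 421 ± 107 CPM and 30.3 times the next class. The Kcnd partner Kcnip4 had 249 ± 51.6 CPM and 47.5 times, the leak channel Kcnk6 had 67.1 ± 10.5 CPM and 2.27 times, and the inward rectifier Kcnj10 had 7.37 ± 2.55 CPM from 58 UMIs. Lymphoid-like nuclei were marked by 2 of 6 (33.3%, against 5.75% of all genes). These were Kcnn4, the intermediate-conductance channel of activated T cells, at 57.4 ± 28.3 CPM from 69 UMIs, and the accessory subunit Kcnmb4, at 45.7 ± 15 CPM from 57 UMIs, with as few as 4 UMIs in 1 library for each. Kcna3, the voltage-gated channel of T cells, had only 4 UMIs in the class.

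Several abundant members were broad. Kcnt2, a sodium-activated channel, had 1906 ± 266 CPM in fibroblast-like, 1521 ± 415 CPM in endocardial-like, 861 ± 161 CPM in epicardial-like and 637 ± 75.3 CPM in pericyte-like nuclei, but 10 ± 2.31 CPM in cardiomyocyte-like nuclei. The non-coding Kcnq1ot1, which silences the Kcnq1 domain on the paternal chromosome, lay between 201 ± 11.6 CPM in cardiomyocyte-like and 917 ± 159 CPM in epicardial-like nuclei. Its lowest class was thus the class where Kcnq1 itself was highest.

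Between groups, 66 of the 97 members passed the filter on low counts in at least 1 class, as 240 pairs of member and class. In R403Q-CD against WT-CD no pair was called at an adjusted p under 0.05 by edgeR's quasi-likelihood test, where 0.019% of all gene and class pairs were called. At an unadjusted p under 0.05 there were 36 members' pairs (15%, against 4.32% of all pairs), and DESeq2 called 1, Kcnc1 in cardiomyocyte-like nuclei. In R403Q-EMPA against R403Q-CD 6 of 240 were called, 3 higher and 3 lower, against 0.331% of all pairs. In R403Q-EMPA against WT-CD 9 were called, 5 higher and 4 lower, against 1.41% of all pairs. The last comparison changes genotype and diet at the same time, and each group takes part in 2 comparisons, so the calls are not independent. The 15 calls fell on 11 pairs in 5 classes, with 6 of the 11 in endocardial-like nuclei. Kcnma1, Kcnj5, Kcnk10 and Kcnn4 in that class passed the low-count filter only through their UMIs in R403Q-EMPA. Their calls, all higher in R403Q-EMPA, are part of these counts, so beside the shares of all pairs the counts are a description only. Single libraries moved these counts. The share of all gene and class pairs called under the same omission stands in brackets. For R403Q-EMPA against R403Q-CD the count went from 6 to 0 without R403Q-CD replicate 2 (0.035%), to 3 without R403Q-EMPA replicate 1 (0.178%), to 15 without R403Q-EMPA replicate 2 (0.728%) and to 14 without WT-CD replicate 1 (1.2%) or 2 (1.15%). For R403Q-EMPA against WT-CD it went from 9 to 2 without R403Q-EMPA replicate 1 (0.313%), to 18 without R403Q-EMPA replicate 2 (1.48%) and to 17 without WT-CD replicate 1 (2.88%). For R403Q-CD against WT-CD it went from 0 to 1 without WT-CD replicate 2 (0.122%) and to 3 without R403Q-EMPA replicate 1 (0.0799%) or 2 (0.0705%).

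**Figure D4:**
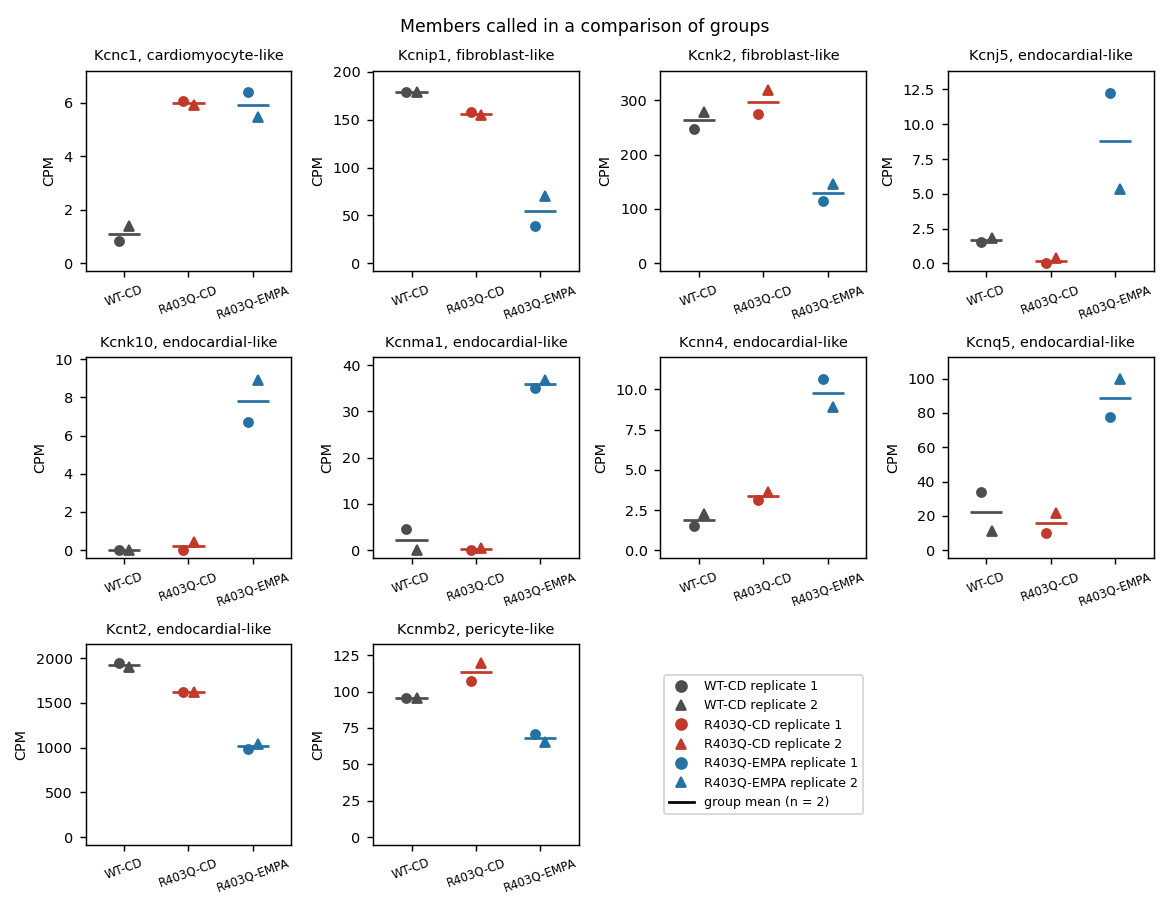
CPM of 10 of the 11 pairs of member and class that were called in a comparison of groups, 1 point per library with a bar at each group mean (n = 2). In endocardial-like nuclei the R403Q-EMPA points of Kcnma1, Kcnq5, Kcnj5, Kcnk10 and Kcnn4 lie above all others, and those of Kcnt2 lie below, as do those of Kcnk2 and Kcnip1 in fibroblast-like and Kcnmb2 in pericyte-like nuclei.

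In cardiomyocyte-like nuclei 1 of 43 members tested was called, in R403Q-EMPA against WT-CD, where 4.13% of all genes were called. This was Kcnc1 (ENSMUSG00000058975), a fast voltage-gated channel. Its UMIs were 7 and 12 UMIs (WT-CD), 61 and 69 UMIs (R403Q-CD) and 91 and 63 UMIs (R403Q-EMPA), or 0.824 and 1.39 CPM (WT-CD), 6.07 and 5.91 CPM (R403Q-CD) and 6.39 and 5.45 CPM (R403Q-EMPA). Both mutant groups were thus above both WT-CD libraries, and the 2 mutant groups overlapped. Kcnc1 rose in R403Q-EMPA against WT-CD (log2 fold change 2.33, SE 0.37, adjusted p = 0.00984). The step from WT-CD to R403Q-CD had about the same size but missed the threshold (log2 fold change 2.41, SE 0.37, adjusted p = 0.0581). Without R403Q-EMPA replicate 1 the call against WT-CD was lost (adjusted p = 0.0531), and without WT-CD replicate 2 the step to R403Q-CD was called (adjusted p = 0.0441). The class changed in make-up: the cluster led by Ryr3 held 4.01% and 3.09% (WT-CD), 8.35% and 17.2% (R403Q-CD) and 45.9% and 31% (R403Q-EMPA) of its nuclei. That share is a description only, since the genes that define a cluster can themselves differ between groups. In the largest cluster alone Kcnc1 measured 0.886 and 0.99 CPM (WT-CD), 6.34 and 4.77 CPM (R403Q-CD) and 2.79 and 4.38 CPM (R403Q-EMPA), so that the mutant libraries were above WT-CD there too (adjusted p = 0.072 in that cluster alone for R403Q-EMPA against WT-CD). In the Ryr3 cluster alone it measured 0 and 5.95 CPM (WT-CD), 6.34 and 11.4 CPM (R403Q-CD) and 9.16 and 7.81 CPM (R403Q-EMPA), with a log2 fold change of 1.60 (adjusted p = 0.524), so the call held in neither cluster alone.

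No other member was called by edgeR in cardiomyocyte-like nuclei, although DESeq2 called Kcnd2 and Kcnj3 in R403Q-EMPA against both other groups and Kcnh2 against WT-CD. Kcnd2 was lower in both R403Q-EMPA libraries than in the other 4, with log2 fold changes of -0.81 against R403Q-CD (SE 0.26, adjusted p = 0.23) and -0.90 against WT-CD (SE 0.26, adjusted p = 0.0902). Leaving out WT-CD replicate 1 brought the second below the threshold (adjusted p = 0.0201). Within the largest cluster Kcnd2 measured 3162 and 3863 CPM (WT-CD), 3871 and 3232 CPM (R403Q-CD) and 2209.9 and 2518 CPM (R403Q-EMPA), again lowest in R403Q-EMPA. Kcnj3 measured 617 and 639 CPM (WT-CD), 728 and 668 CPM (R403Q-CD) and 351 and 473 CPM (R403Q-EMPA) in the class, with the R403Q-EMPA libraries below the other 4 (log2 fold change -0.82, SE 0.21, adjusted p = 0.148 against R403Q-CD). Its level was lower in the Ryr3 cluster, at 316 and 452 CPM (WT-CD), 491 and 408 CPM (R403Q-CD) and 231 and 288 CPM (R403Q-EMPA), than in the largest cluster, at 632 and 645 CPM (WT-CD), 757 and 744 CPM (R403Q-CD) and 516 and 575 CPM (R403Q-EMPA), and the Ryr3 cluster took more of the class in R403Q-EMPA. How much of the difference comes from that shift was not tested. Kcnh2 measured 43.7 and 51.1 CPM (WT-CD), 37.6 and 37.6 CPM (R403Q-CD) and 34.5 and 26.7 CPM (R403Q-EMPA) (log2 fold change -0.71, SE 0.18, adjusted p = 0.0597 for R403Q-EMPA against WT-CD), and without WT-CD replicate 1 it was called (adjusted p = 0.0214). For Kcnn2 the same comparison gave log2 fold change -0.75, SE 0.28, adjusted p = 0.184, and 0.0439 as adjusted p without WT-CD replicate 1. Kcnq1, Kcnj2, Kcnj11 and Kcnip2 had values that overlapped or lay close between groups, with log2 fold changes of R403Q-CD against WT-CD of -0.20, -0.38, -0.08 and -0.01.

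In endocardial-like nuclei 5 of the 28 members tested were called in R403Q-EMPA against WT-CD, where 2.2% of all genes were called, and against R403Q-CD 3 were, where 0.895% of all genes were. Of the 28, 7 passed the filter on low counts only through their UMIs in R403Q-EMPA, among them Kcnma1, Kcnk10, Kcnj5 and Kcnn4. These 4 had to be high in R403Q-EMPA to be tested at all, so their values and adjusted p are given as a description, and the counts of calls in this class support nothing about the members. Kcnma1 (ENSMUSG00000063142) had 9 and 0 UMIs (WT-CD), 0 and 1 UMIs (R403Q-CD) and 89 and 62 UMIs (R403Q-EMPA). Both R403Q-EMPA libraries were therefore far above the others, 3 of which held 1 UMI or none. Kcnma1 was higher in R403Q-EMPA than in WT-CD (log2 fold change 3.97, SE 0.59, adjusted p = 0.00743) and than in R403Q-CD, where the 1 UMI gives a 134-fold ratio (95% interval for counting error alone 23.6 to 5315, adjusted p = 0.00554). Without R403Q-EMPA replicate 1 the adjusted p against WT-CD was 0.0538, and without R403Q-CD replicate 2 that against R403Q-CD was 0.0838. The size of the change was not stable. Without WT-CD replicate 2 the log2 fold change against WT-CD was 2.97. Without WT-CD replicate 1 it was 9.16, and without R403Q-CD replicate 2 that against R403Q-CD was 9.10, fitted values that depend on the prior count because no UMI is then left in the control-diet group. DESeq2 made neither call. Smooth muscle-like nuclei were the class highest in Kcnma1, and their markers summed to 84.2 and 71.1 CPM (WT-CD), 101 and 68.9 CPM (R403Q-CD) and 54.4 and 83.5 CPM (R403Q-EMPA) in endocardial-like nuclei, where the 3 groups overlapped, and their part in the Kcnma1 values was not tested. In fibroblast-like nuclei Kcnma1 measured 6.18 and 6.67 CPM (WT-CD), 1.83 and 11.8 CPM (R403Q-CD) and 31.3 and 21.5 CPM (R403Q-EMPA), also highest in R403Q-EMPA and not called (log2 fold change 2.00, SE 0.56, adjusted p = 0.147 against WT-CD).

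Kcnq5 (ENSMUSG00000028033) measured 34.2 and 10.9 CPM (WT-CD), 10.2 and 21.9 CPM (R403Q-CD) and 77.6 and 99.5 CPM (R403Q-EMPA) in endocardial-like nuclei. It rose in R403Q-EMPA against R403Q-CD (log2 fold change 2.33, SE 0.40, adjusted p = 0.0259) and against WT-CD (log2 fold change 1.96, SE 0.38, adjusted p = 0.0271), and the 2 control-diet groups overlapped. The call against R403Q-CD was lost without R403Q-CD replicate 1, R403Q-CD replicate 2 or R403Q-EMPA replicate 1 (adjusted p = 0.18, 0.0838 and 0.0602) and without the mitochondrial filter (0.0593), and that against WT-CD without R403Q-EMPA replicate 1 or 2 (0.0706 and 0.053). DESeq2 made neither of these calls. The log2 fold change against R403Q-CD was 3.08 without R403Q-CD replicate 2, and that against WT-CD was 2.92 without WT-CD replicate 1 and 1.38 without WT-CD replicate 2. In pericyte-like, epicardial-like and smooth muscle-like nuclei Kcnq5 went the other way against WT-CD and was not called (log2 fold change -0.82, -0.82 and -3.24, adjusted p = 0.206, 0.199 and 0.37 by edgeR). The difference in log2 fold change against WT-CD from fibroblast-like nuclei was 0.12 (limma, adjusted p = 0.95).

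3 further members had very few UMIs outside R403Q-EMPA and passed the low-count filter only through that group, so their adjusted p are a description. Kcnk10 (ENSMUSG00000033854), a leak channel related to Kcnk2, had 0 and 0 UMIs (WT-CD), 0 and 1 UMIs (R403Q-CD) and 17 and 15 UMIs (R403Q-EMPA). With no UMI in WT-CD, the 95% interval of its ratio of R403Q-EMPA to WT-CD for counting error alone starts at 8.05 (adjusted p = 0.0177). Kcnj5 (ENSMUSG00000032034) had 3 and 4 UMIs (WT-CD), 0 and 1 UMIs (R403Q-CD) and 31 and 9 UMIs (R403Q-EMPA), and its ratio of R403Q-EMPA to R403Q-CD was 35.4 (95% interval for counting error alone 6.00 to 1433, adjusted p = 0.0449). Kcnn4 (ENSMUSG00000054342) had 3 and 5 UMIs (WT-CD), 4 and 9 UMIs (R403Q-CD) and 27 and 15 UMIs (R403Q-EMPA) and was higher in R403Q-EMPA than in WT-CD (log2 fold change 2.28, SE 0.52, adjusted p = 0.0474). In all 3 genes both R403Q-EMPA libraries were above the other 4. Leaving out any 1 of the 6 libraries ended the Kcnn4 call, with adjusted p between 0.0825 and 0.382. The Kcnk10 call ended without WT-CD replicate 2, R403Q-EMPA replicate 1 or R403Q-EMPA replicate 2 (0.0536, 0.122 and 0.0593), and the Kcnj5 call without R403Q-CD replicate 1, R403Q-CD replicate 2 or R403Q-EMPA replicate 1 (0.261, 0.299 and 0.523). Without the mitochondrial filter neither Kcnn4 (0.0603) nor Kcnj5 (0.0528) was called, and DESeq2 did not call Kcnj5. The log2 fold change of Kcnj5 went from 4.79 to 4.02 without R403Q-EMPA replicate 1, 4.11 without the mitochondrial filter and 7.13 without R403Q-CD replicate 2, where no UMI is left in R403Q-CD and the fitted value depends on the prior count. Kcnj5 is highest in cardiomyocyte-like nuclei, whose markers summed to 1933 and 1316 CPM (WT-CD), 2794 and 2045 CPM (R403Q-CD) and 2231 and 2908 CPM (R403Q-EMPA) here, higher in the mutant groups than in WT-CD. The part of that RNA in the Kcnj5 values was not tested.

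Kcnt2 went the other way. This gene (ENSMUSG00000052726) measured 1947 and 1904 CPM (WT-CD), 1625 and 1618 CPM (R403Q-CD) and 987 and 1046 CPM (R403Q-EMPA) in endocardial-like nuclei, a step down from each group to the next with no overlap. Kcnt2 fell in R403Q-EMPA against WT-CD (log2 fold change -0.95, SE 0.16, adjusted p = 0.013), and the difference from R403Q-CD missed the threshold (log2 fold change -0.70, SE 0.16, adjusted p = 0.0803). The call was lost without R403Q-CD replicate 1, R403Q-CD replicate 2 or R403Q-EMPA replicate 1 (adjusted p = 0.0546, 0.058 and 0.107). The endocardial markers summed to 9779 and 10244 CPM (WT-CD), 10997 and 9362 CPM (R403Q-CD) and 6089 and 8295 CPM (R403Q-EMPA) and were lowest in R403Q-EMPA as well, and the part of this in the changes of the class was not tested. Kcnc2, which marked the class, measured 792 and 1418 CPM (WT-CD), 1060.3 and 1350.1 CPM (R403Q-CD) and 1613 and 1638 CPM (R403Q-EMPA) and gave no call (log2 fold change 0.51, SE 0.26, adjusted p = 0.407 for R403Q-EMPA against WT-CD).

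The sequence around the start sites of the 5 members with higher values in endocardial-like nuclei of R403Q-EMPA is shown as a description. They were picked for those values, and Kcnma1, Kcnk10, Kcnj5 and Kcnn4 passed the low-count filter only through them, so their calls are no ground for the choice. The windows come from RefSeq on GRCm38.p6, with 300 bases each around an annotated start, whereas the counts were made on GRCm39. All 5 were in the table, as were 71 of the 97 members. 6 motifs were searched on both strands: TATAAA, the E-box CACGTG, the AP-1 site TGACTCA, the GATA site GATAAG, the nuclear receptor site AGGTCA and the MEF2 motif. Shown are the 3 genes with a single annotated start and the start of Kcnk10 that held a match, 5′ to 3′ on the strand of the gene, with matches in capitals. Kcnma1 is at chr14:24004156-24004455 (minus strand), Kcnj5 at chr9:32344295-32344594 (minus), Kcnn4 at chr7:24370013-24370312 (plus) and Kcnk10 at chr12:98575078-98575377 (minus).
Kcnma1: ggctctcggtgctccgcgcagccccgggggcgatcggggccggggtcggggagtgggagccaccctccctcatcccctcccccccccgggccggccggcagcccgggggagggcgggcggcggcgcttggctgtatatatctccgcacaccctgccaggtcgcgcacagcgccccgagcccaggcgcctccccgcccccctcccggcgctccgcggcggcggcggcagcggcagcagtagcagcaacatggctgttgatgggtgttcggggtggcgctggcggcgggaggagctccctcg
Kcnj5: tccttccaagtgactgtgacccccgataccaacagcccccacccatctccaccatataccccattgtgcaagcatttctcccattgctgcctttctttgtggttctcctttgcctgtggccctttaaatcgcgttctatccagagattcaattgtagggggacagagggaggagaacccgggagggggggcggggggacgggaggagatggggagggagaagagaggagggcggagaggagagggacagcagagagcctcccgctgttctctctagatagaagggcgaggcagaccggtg
Kcnn4: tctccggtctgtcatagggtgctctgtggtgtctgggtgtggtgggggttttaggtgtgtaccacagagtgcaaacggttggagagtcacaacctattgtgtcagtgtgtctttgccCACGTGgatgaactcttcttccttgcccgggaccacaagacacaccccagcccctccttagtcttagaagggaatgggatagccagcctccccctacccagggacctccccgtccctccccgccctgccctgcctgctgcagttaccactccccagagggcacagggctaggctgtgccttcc
Kcnk10: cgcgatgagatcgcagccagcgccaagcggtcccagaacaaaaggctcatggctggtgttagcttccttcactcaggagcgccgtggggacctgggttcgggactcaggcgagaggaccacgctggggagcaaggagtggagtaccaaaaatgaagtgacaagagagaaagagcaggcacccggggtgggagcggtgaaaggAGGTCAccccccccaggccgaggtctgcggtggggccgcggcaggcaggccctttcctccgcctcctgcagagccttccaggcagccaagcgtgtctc
No motif was shared by these windows. CACGTG occurred in the Kcnn4 window, and 7.15% of all 32851 windows hold it. AGGTCA occurred in the Kcnk10 window, and 16.3% of all windows hold it. None of the 6 motifs was in the windows of Kcnma1, Kcnj5 or Kcnq5 (2 starts) or in the other start of Kcnk10. TATAAA is in 13.6%, TGACTCA in 5.20%, GATAAG in 7.44% and the MEF2 motif in 3.69% of all windows. By base composition the Kcnma1 window stood out, with 78.0% G and C against a median of 52.7% over all windows.

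In fibroblast-like nuclei Kcnk2 and Kcnip1 fell with EMPA in both comparisons. These were 2 of 41 members tested in each, where 0.352% of all genes were called against R403Q-CD and 1.21% against WT-CD. Kcnk2 (ENSMUSG00000037624), which marked the class, measured 247 and 278 CPM (WT-CD), 275 and 318 CPM (R403Q-CD) and 114 and 146 CPM (R403Q-EMPA). Both R403Q-EMPA libraries were below the other 4, and WT-CD and R403Q-CD overlapped. In endothelial-like nuclei Kcnk2 was also lower in R403Q-EMPA than in WT-CD and not called (log2 fold change -2.33, SE 0.47, adjusted p = 0.0675). The part of fibroblast RNA there was not tested. The difference in log2 fold change against WT-CD from cardiomyocyte-like nuclei was 0.11 (limma, adjusted p = 0.965). In fibroblast-like nuclei Kcnk2 fell against R403Q-CD (log2 fold change -1.23, SE 0.17, adjusted p = 0.0351) and against WT-CD (log2 fold change -1.06, SE 0.17, adjusted p = 0.0313). Leaving out R403Q-CD replicate 1, R403Q-CD replicate 2 or R403Q-EMPA replicate 1 gave adjusted p = 0.327, 0.309 and 0.229 against R403Q-CD, and 0.0819, 0.08 and 0.215 against WT-CD, where leaving out WT-CD replicate 2 gave 0.0535.

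Kcnip1 (ENSMUSG00000053519), a calcium-binding partner of Kcnd channels, measured 179 and 179 CPM (WT-CD), 158 and 155 CPM (R403Q-CD) and 39.5 and 70.4 CPM (R403Q-EMPA). The 3 groups did not overlap and R403Q-EMPA was lowest. Kcnip1 fell against R403Q-CD (log2 fold change -1.56, SE 0.24, adjusted p = 0.0438) and against WT-CD (log2 fold change -1.76, SE 0.24, adjusted p = 0.0163). The call against WT-CD held under all 14 alternative settings, and that against R403Q-CD was lost without R403Q-CD replicate 1, R403Q-CD replicate 2 or R403Q-EMPA replicate 1 (adjusted p = 0.346, 0.271 and 0.139) and without the mitochondrial filter (0.0605). In pericyte-like nuclei, where Kcnip1 measured 68.6 and 97.8 CPM (WT-CD), 78 and 54.4 CPM (R403Q-CD) and 42.8 and 109 CPM (R403Q-EMPA), the groups overlapped. In smooth muscle-like nuclei it went the other way, at 14 and 58.9 CPM (WT-CD), 140 and 7.02 CPM (R403Q-CD) and 209 and 165 CPM (R403Q-EMPA). These rest on 81 UMIs and gave no call (log2 fold change 2.31, SE 0.71, adjusted p = 0.307 for R403Q-EMPA against WT-CD).

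The clusters of the fibroblast-like class took other shares with EMPA, so both genes were read within its clusters. A cluster led by Ltbp2 and Cilp held 3.96% and 3.25% (WT-CD), 3.31% and 5% (R403Q-CD) and 36.8% and 8.97% (R403Q-EMPA) of the class, and 1 led by Grm8 held 24.5% and 27.1% (WT-CD), 24.2% and 20.9% (R403Q-CD) and 7.66% and 7.3% (R403Q-EMPA). Kcnk2 was lower in both R403Q-EMPA libraries than in the other 4 in each of the 5 clusters. In the Grm8 cluster it measured 272 and 350.2 CPM (WT-CD), 314 and 375 CPM (R403Q-CD) and 118 and 153 CPM (R403Q-EMPA), and in the Ltbp2 cluster 243 and 323 CPM (WT-CD), 325 and 245 CPM (R403Q-CD) and 127 and 128 CPM (R403Q-EMPA). Kcnip1 was highest in the 2 clusters led by Kcnip1 itself and by Grm8. In the former it measured 314 and 275 CPM (WT-CD), 253 and 279.9 CPM (R403Q-CD) and 141 and 169 CPM (R403Q-EMPA), and in the latter 323 and 335 CPM (WT-CD), 294 and 236 CPM (R403Q-CD) and 84.1 and 87.7 CPM (R403Q-EMPA), so that both R403Q-EMPA libraries were lowest within each. These values per cluster are descriptions and were not tested singly.

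**Figure D5:**
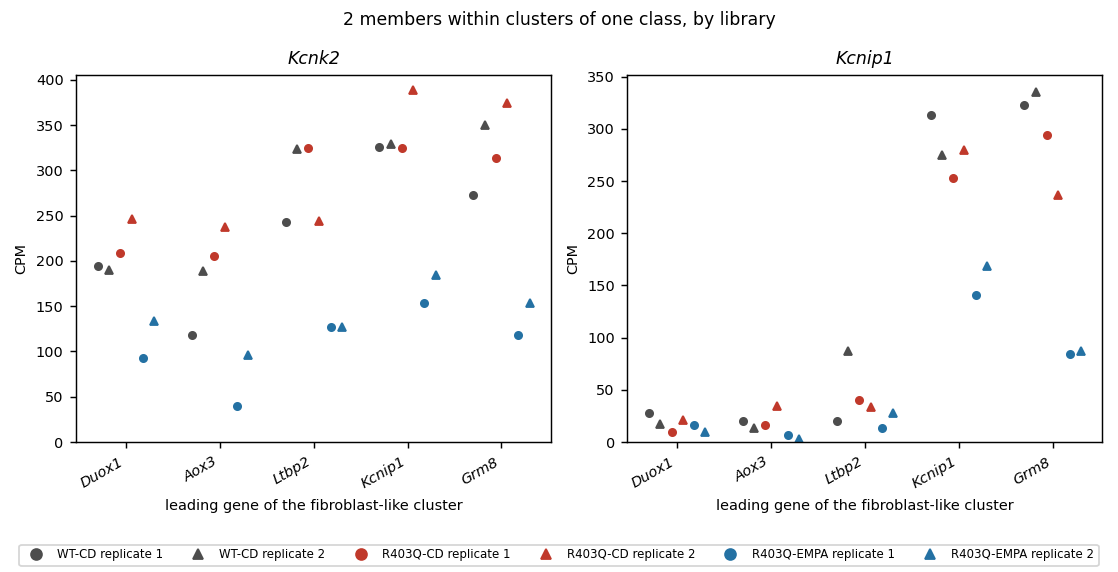
CPM of Kcnk2 and Kcnip1 in the 5 clusters of fibroblast-like nuclei, 1 point per library, with clusters named by their leading gene. The R403Q-EMPA points of Kcnk2 are lowest in all 5 clusters, and those of Kcnip1 in the 2 clusters that carry most of it.

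In pericyte-like nuclei 1 of 31 members tested was called, in R403Q-EMPA against R403Q-CD, where 0.583% of all genes were called. Kcnmb2 (ENSMUSG00000037610) measured 95.4 and 95.4 CPM (WT-CD), 107 and 119.8 CPM (R403Q-CD) and 70.7 and 65 CPM (R403Q-EMPA), with both R403Q-EMPA libraries below and both R403Q-CD libraries above WT-CD. It fell in R403Q-EMPA against R403Q-CD (log2 fold change -0.77, SE 0.16, adjusted p = 0.0451). Leaving out any 1 of the 4 libraries of these groups ended the call, with adjusted p between 0.184 and 0.593, as did leaving out the mitochondrial filter (0.0711) and using DESeq2. Kcnj8, the strongest marker of the class, gave no call, with log2 fold change -0.37, SE 0.19, adjusted p = 0.454 for R403Q-EMPA against WT-CD.

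In the other 5 classes no member was called, and the member with the smallest p in each is given. In myeloid-like nuclei Kcnk13 measured 475 and 608 CPM (WT-CD), 398 and 393 CPM (R403Q-CD) and 323 and 331 CPM (R403Q-EMPA), a step down at each group without overlap (log2 fold change -0.78, SE 0.17, adjusted p = 0.0796 for R403Q-EMPA against WT-CD), and leaving out WT-CD replicate 1 gave adjusted p = 0.0278. In epicardial-like nuclei it was Kcnd2, whose 2 WT-CD libraries were above the other 4 (log2 fold change -0.76, SE 0.17, adjusted p = 0.101 for R403Q-CD and log2 fold change -0.73, SE 0.17, adjusted p = 0.0952 for R403Q-EMPA, each against WT-CD). Leaving out R403Q-EMPA replicate 1 or 2 gave adjusted p = 0.00994 and 0.0177 for the former, and leaving out R403Q-CD replicate 1 or 2 gave 0.0254 and 0.0266 for the latter. In lymphatic endothelial-like nuclei Kcng2 measured 26.5 and 28.2 CPM (WT-CD), 23.2 and 21.8 CPM (R403Q-CD) and 73 and 51 CPM (R403Q-EMPA) (log2 fold change 1.52, SE 0.34, adjusted p = 0.256 for R403Q-EMPA against R403Q-CD), and without WT-CD replicate 1 or 2 that comparison was called (adjusted p = 0.0194 and 0.0458). In lymphoid-like nuclei Kcnn2, a cardiomyocyte member, had 13 and 22 UMIs (WT-CD), 0 and 0 UMIs (R403Q-CD) and 3 and 13 UMIs (R403Q-EMPA), and the 2 R403Q-CD libraries, with none, were those with the least cardiomyocyte RNA (2836 and 3444 CPM of its markers). The part of that RNA in the Kcnn2 values was not tested. The adjusted p of Kcnn2 was 0.408 for R403Q-CD against WT-CD, and 0.0194 and 0.0372 without R403Q-EMPA replicate 1 and 2. Smooth muscle-like nuclei are described above with Kcnma1.

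Whether a called change differed between classes was tested with limma on the difference, within each library, from fibroblast-like nuclei or, for members called in fibroblast-like nuclei, from cardiomyocyte-like nuclei. Of 15 such tests 11 gave a value, the other 4 being members too low in the second class, and none passed, with adjusted p from 0.297 to 0.98. The smallest p was that of Kcnip1, fibroblast-like minus cardiomyocyte-like nuclei, R403Q-EMPA against R403Q-CD (difference in log2 fold change -2.35, adjusted p = 0.297). For Kcnq5, endocardial-like minus fibroblast-like nuclei, R403Q-EMPA against R403Q-CD, it was 0.05, adjusted p = 0.98. No change is therefore shown to be particular to 1 class.

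The list of 17 partner genes, namely regulatory subunits, pacemaker channels and the sodium pump, gave 1 call in 195 tests over 10 classes and 3 comparisons. Lrrc52, an accessory protein of sodium- and calcium-activated channels, measured 9.77 and 7.96 CPM (WT-CD), 6.47 and 6.42 CPM (R403Q-CD) and 3.86 and 4.5 CPM (R403Q-EMPA) in cardiomyocyte-like nuclei and fell in R403Q-EMPA against WT-CD (log2 fold change -1.15, SE 0.25, adjusted p = 0.0329), as 1 of 12 partners tested there, where 4.13% of all genes were called.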

How the data were processed

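Nuclei were isolated from frozen left ventricle and sequenced as 10x Genomics libraries, 2 per group. The authors deposited raw UMI counts per gene and barcode for each library, and the submitters' processing notes name Cell Ranger 8.0.1 and GRCm39. Whether intronic reads were counted is not given in the sources used here.

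Barcodes with at least 500 UMIs, at least 300 genes and at most 5% mitochondrial UMIs were kept, and doublets called with scrublet in scanpy 1.11.5 (3.68% to 6.45% of those passing) were removed. Variable genes (2000, less 27 Kcn genes) gave 30 principal components and Leiden clusters at resolution 1. A cluster was named from fixed marker lists by at least 3 markers at 2 times the level of the other clusters and seen in 10% of its nuclei. Free RNA was not subtracted.

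The UMIs of all nuclei in a class were added up within each library. edgeR 4.0.16 (quasi-likelihood F test, TMM scaling, filterByExpr) was fitted to all genes with the 6 libraries of a class together, which leaves 3 residual degrees of freedom. Benjamini-Hochberg adjustment ran over all genes of 1 class and comparison, and an adjusted p under 0.05 was called. Differences between classes were tested with limma 3.58.1. The edgeR step was tested on simulated data. Counting intervals cover counting error only. Alternatives were other scaling, no filter on low counts, DESeq2 1.42.0, deeper nuclei (1000 UMIs), no mitochondrial filter (with 1 library's doublets taken by score rank, since scrublet marked too few), Leiden resolution 0.5, clustering with Kcn genes and leaving out each library.

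Members and gene lists were chosen with earlier results of these data known. Named were 24 channels of known cardiac, vascular and immune currents, up to 5 members marking each class, called members, and the member with the smallest p where a class had no call. Kcna4 and Kcna7 were named beyond this rule, and Kcnq5 and Kcnk5 in epicardial-like nuclei, Kcnc2 between groups, Kcnt2 and Kcnq1ot1 across classes and Kcna1 and Kcna6 were singled out after their values were seen. Some members and partner genes are counted but not reported here. Promoter windows and Ensembl identifiers were taken from RefSeq tables and the deposited features.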

Additional observations from a re-analysis of the deposited data

How the results depend on the processing

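With 2 libraries a group, single libraries decided most calls. Leaving out 1 library gave 0 to 3 members called in R403Q-CD against WT-CD, 0 to 15 in R403Q-EMPA against R403Q-CD and 2 to 18 in R403Q-EMPA against WT-CD, against 0, 6 and 9 with all libraries, while the share of all gene and class pairs called ran from 0.0133% to 0.122%, 0.035% to 1.2% and 0.313% to 2.88%. A group reduced to 1 library is assumed to vary like the others. Without the filter on low counts 9, 33 and 39 were called (of all pairs 0.374%, 1.65% and 2.53%), without the mitochondrial filter 1, 2 and 10 (0.602%, 0.259% and 1.95%), and with DESeq2 1, 8 and 11 (0.123%, 0.866% and 1.79%). With all libraries and edgeR the shares were 0.019%, 0.331% and 1.41%. The mitochondrial filter's removal ended the calls of Kcnq5 and Kcnj5 against R403Q-CD and of Kcnn4 against WT-CD in endocardial-like nuclei, of Kcnip1 against R403Q-CD in fibroblast-like nuclei and of Kcnmb2 in pericyte-like nuclei. DESeq2 ended the endocardial-like calls of Kcnma1, Kcnq5 and Kcnj5 and the pericyte-like call of Kcnmb2, and gave no adjusted p for Kcnk10 and Kcnn4. Without the smallest cluster of cardiomyocyte-like nuclei, a subset chosen after the data were seen, 1 was called in R403Q-CD against WT-CD. RLE scaling, deeper nuclei, Leiden resolution 0.5 and clustering with Kcn genes kept each count within 1.5 times. The causes of these shifts were not tested.

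The count of marking members lay between 25 (a ratio of 3) and 33 (without R403Q-EMPA replicate 1), against 29. At a ratio of 3 Kcnc2, Kcnd3, Kcnh1 and Kcnk6 were lost, and at Leiden resolution 0.5 Kcnh1 was.

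Log2 fold changes of named members changed sign for Kcnq5 in smooth muscle-like nuclei, R403Q-EMPA against R403Q-CD (from -3.09 to 0.20 without R403Q-CD replicate 2 and -6.92 without R403Q-EMPA replicate 2), and for Kcnma1 in cardiomyocyte-like nuclei, R403Q-EMPA against WT-CD (-0.72 in the largest cluster alone). Neither was called with all libraries. No paired analysis was run, because the replicate numbers follow accession order and pair no libraries.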
